A study of Mus musculus with 27 samples.

Results

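Promoter windows that were accessible on the diet list but not on the control list were examined in mouse Kupffer cells, macrophages that reside in the liver. The windows came from 2 lists of reproducible ATAC-seq peaks, which mark open chromatin, of Tim4-positive cells, one for control and one whose name gives 20 weeks of diet, called the 20-week list. A window belonged to the set when it was on the 20-week list, was not on the control list, and had its centre at most 1000 bp from the nearest transcription start as annotated with HOMER. These were 1151 windows at 1095 genes, of 70300 windows in all (1.64%), of 20722 promoter windows and of 6836 windows on the 20-week list only. The choice used the ATAC lists and the distance alone, and no value of the chromatin measurements described next.

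ChIP-seq libraries of H3K27ac, an acetylation of histone H3 that marks active promoters and enhancers, came from 2 samples per diet. Kupffer cells with high F4/80 and with surface Tim4 were sorted from C57BL/6J mice fed a control diet or a NASH diet, which models fatty and inflamed liver. Livers of both diets were digested in the presence of flavopiridol, which blocks transcription. For the ChIP-seq libraries, the sources used here do not state the time on the diet. Binding sites of LXR, a nuclear receptor that senses oxysterols, of ATF3, a stress-induced bZIP factor, and of P300, an acetyltransferase of active enhancers, were deposited as 1 list per factor and diet, each made from 2 libraries. The sources used here do not say whether libraries came from separate animals, so p-values measure only the spread between these libraries.

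Promoters are where RNA polymerase II starts transcription. At most expressed genes they are accessible at all times and carry acetylated nucleosomes on both sides of the start, while signal-dependent genes can gain accessibility when factors such as AP-1 bind. In fatty liver, Kupffer cells and the macrophages that replace them take up lipid and dying cells, and a set of genes of lipid handling, lysosomes and matrix breakdown, among them Gpnmb and Trem2, is known to become active in such cells.

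H3K27ac is given as tags per window scaled to 10000000 per library, called normalised tags. The libraries held from 9468035 to 22615879 tags, and a member had a median of 17 to 31 tags in a library. The floor that a count of 0 leaves, 3 tags, equals 1.33 to 3.17 normalised tags depending on the library, and it covers counting error only. Replicate libraries correlated at 0.85 and 0.89 (Pearson's r of log2 values across 35947 windows, which are not independent replicates). Over all their windows, the 30 Kupffer cell identity genes summed to 6172 to 6228 normalised tags in the control libraries and to 3920 to 4383 in the NASH libraries. The 8 of 10 monocyte markers in the table summed to 782 to 955 and to 631 to 639, the 9 of 10 dendritic cell markers to 248 to 286 and to 172 to 185, and the 4 of 14 T and NK cell markers to 128 to 129 and to 155 to 164. None of the monocyte, neutrophil, endothelial, hepatocyte or stellate cell markers in the table (8, 7, 8, 7 and 1 genes) was among the genes of the set. Of all genes in the table, 6.83% were.

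The sequences of 7 promoters are shown because the results turn on these genes: 5 with a window that gained H3K27ac in NASH and, of those with all 3 factors in NASH alone, Clcn7 and B930059L03Rik. The called windows of Serpinb8 and Slc7a11 lie outside the stretch printed. Gpnmb, Serpinb8, Myo5a, Clcn7 and B930059L03Rik have a window under the rule for named windows. Gpnmb, Mmp12, Serpinb8 and Slc7a11 were picked for printing after their values were seen. Ptafr, Plscr1, Stra6l, Astl, Synj2, Runx1, Cmpk1 and Ube2d3 also have a window under that rule. Their promoters hold none of the 3 motifs marked below and are not printed. The 7 therefore do not show how common matches are. Each run is the RefSeq promoter on GRCm38.p6, read 5′ to 3′, with 250 bases before the annotated start and the first 30 bases after it. The stretches are chr6:49036268-49036547 for Gpnmb, chr9:7347124-7347403 for Mmp12, chr1:107589756-107590035 for Serpinb8, chr12:110591124-110591403 for B930059L03Rik, chr17:25136381-25136660 for Clcn7 and chr9:75070956-75071235 for Myo5a on the plus strand, and chr3:50443584-50443863 for Slc7a11 on the minus strand. Capitals mark matches, on either strand, to the AP-1 motif TGANTCA (dimers of Fos, Jun and ATF proteins), the M-box TCATGTG (MiT/TFE factors) and the E-box CACGTG (USF, MYC and MiT/TFE factors). A match of one of these 3 never is a match of another.
Gpnmb: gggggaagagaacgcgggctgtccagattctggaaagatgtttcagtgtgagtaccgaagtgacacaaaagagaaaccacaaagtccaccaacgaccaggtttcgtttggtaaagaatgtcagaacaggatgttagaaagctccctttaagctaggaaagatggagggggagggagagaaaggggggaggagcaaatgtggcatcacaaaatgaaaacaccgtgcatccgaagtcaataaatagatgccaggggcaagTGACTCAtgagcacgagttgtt
Mmp12: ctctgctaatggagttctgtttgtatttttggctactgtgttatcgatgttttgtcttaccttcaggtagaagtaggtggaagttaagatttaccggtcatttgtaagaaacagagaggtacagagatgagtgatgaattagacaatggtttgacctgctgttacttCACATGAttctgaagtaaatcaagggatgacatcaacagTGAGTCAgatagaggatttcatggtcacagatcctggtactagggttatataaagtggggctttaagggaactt
Serpinb8: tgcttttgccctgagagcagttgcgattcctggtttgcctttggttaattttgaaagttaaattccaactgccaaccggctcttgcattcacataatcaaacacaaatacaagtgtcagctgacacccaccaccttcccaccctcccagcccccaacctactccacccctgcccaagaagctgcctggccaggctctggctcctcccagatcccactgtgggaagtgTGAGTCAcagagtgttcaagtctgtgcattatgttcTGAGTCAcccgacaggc
B930059L03Rik: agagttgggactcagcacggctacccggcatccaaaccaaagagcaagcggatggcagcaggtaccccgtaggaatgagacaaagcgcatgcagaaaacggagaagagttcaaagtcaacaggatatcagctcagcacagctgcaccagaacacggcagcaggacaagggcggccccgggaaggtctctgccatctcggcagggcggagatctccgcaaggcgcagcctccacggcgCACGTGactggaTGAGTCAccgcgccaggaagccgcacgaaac
Slc7a11: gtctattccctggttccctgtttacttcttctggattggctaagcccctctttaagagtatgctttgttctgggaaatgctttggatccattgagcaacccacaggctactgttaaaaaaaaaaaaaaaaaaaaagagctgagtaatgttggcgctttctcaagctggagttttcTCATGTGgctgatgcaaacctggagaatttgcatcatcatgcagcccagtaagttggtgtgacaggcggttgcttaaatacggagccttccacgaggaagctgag
Clcn7: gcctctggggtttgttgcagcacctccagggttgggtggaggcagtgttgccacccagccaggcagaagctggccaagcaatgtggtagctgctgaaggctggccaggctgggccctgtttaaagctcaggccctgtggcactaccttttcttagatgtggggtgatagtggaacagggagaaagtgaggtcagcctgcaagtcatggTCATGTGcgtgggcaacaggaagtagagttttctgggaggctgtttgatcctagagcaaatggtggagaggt
Myo5a: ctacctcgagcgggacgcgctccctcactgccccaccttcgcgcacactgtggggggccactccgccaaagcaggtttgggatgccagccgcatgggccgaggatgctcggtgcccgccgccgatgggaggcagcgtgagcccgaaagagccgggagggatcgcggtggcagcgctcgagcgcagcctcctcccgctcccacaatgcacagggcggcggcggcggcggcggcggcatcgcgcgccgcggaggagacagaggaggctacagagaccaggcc

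Positions below count from the RefSeq start as 0. Gpnmb had the AP-1 letters at 8, just inside the transcribed part, and Serpinb8 had them at -23 and at 13, in the neighbouring window that was not called. Mmp12 carried an AP-1 match at -44 and an M-box at -83. In B930059L03Rik an E-box at -13 was followed by AP-1 at -1. Slc7a11 and Clcn7 held an M-box at -75 and at -42, and Myo5a held none of the 3 motifs. A match describes letters and is not a binding site.

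Of the 33 genes with a window called higher in NASH, 30 matched a RefSeq promoter by symbol. In the 300 bases of their promoters, 7 of the 30 (23.3%) had an AP-1 match (Bcl2a1d, Gm19510, Gpnmb, Mmp12, Rnh1, Serpinb8, Sgms1), against 7.81% of all 32851 RefSeq promoters. The match lay inside the called window itself in 2 of the 7, Gpnmb and Mmp12. Bcl2a1d has near-identical gene copies, so its tags and its call are uncertain. An M-box occurred in 4 (13.3%; Clcn7, Mmp12, Mrgpre, Slc7a11), against 3.77% of all, and inside the called window in 2 of them, Clcn7 and Mmp12. The RUNX motif TGTGGT occurred in 7 (23.3%), against 16.8%, the GC box GGGCGGG in 11 (36.7%), against 25.6%, and the CCAAT box in 7 (23.3%), against 37.4%. The CRE motif TGACGTCA occurred in none of the 30 and in 1.79% of all. Most RefSeq promoters are not accessible windows here. For the 9735 promoter windows that overlap one, the shares were 4.66% for AP-1, 2.01% for the M-box and 12.0% for RUNX. They were 51.2% for the GC box, 38.3% for the CCAAT box and 3.65% for CRE. The GC box of the 30 genes was thus above the first baseline and below the second. The shares of the 30 genes are descriptions of a small list. A comparison of base composition over all members is void, because only 295 of the 1151 windows (25.6%) overlap a RefSeq promoter.

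Most of the set lay at promoters that the control list already held open. Of the 1151 windows, 916 (79.6%) had another window of the control list within 1000 bp of a start of the same gene, and for 865 of them such a window was on both lists. The median gap between those 916 windows and the nearest control-list window was 148.5 bp. The other 235 windows (20.4%), at 218 genes, had no control-list window at the gene's promoter, and their median gap was 6985 bp. Gene names do not settle this fully: 53 of the 235 were within 1000 bp of a control-list window that was given to another gene or lay farther from the start. Another 26, of the 916, were over 1000 bp from any, with the gene's control-list window at another start or on the far side of the start. A second division, chosen after the data were seen, therefore used distance alone. By it, 208 members had no control-list window of any gene within 1000 bp and are called isolated here, and 943 had one and are called flanking.

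Flanking and isolated members differed in position. Isolated members peaked at the start itself: 37.0% had their centre in the 100 bp before it and 13.5% in the 100 bp after it, close to promoters on both lists (38.8% and 13.2%). Flanking members were sparse there, with 6.36% and 4.24%. They were most frequent inside the gene, with 13.7% at 200 to 300 bp and 13% at 300 to 400 bp after the start, where promoters on both lists had 3.54% and 4.12%. Of all members, 666 (57.9%) lay downstream of the start. HOMER annotated 650 (56.5%) as promoter-TSS and 372 (32.3%) as intron, against 79.1% and 14.8% of promoters on both lists. The authors' ATAC peak score had a median of 18.3 in the members, 39.6 in the 15013 promoters on both lists and 11.4 in the 4558 on the control list only. Every member was 201 bp wide, and 1071 were assigned to protein-coding genes.

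**Figure D1:**
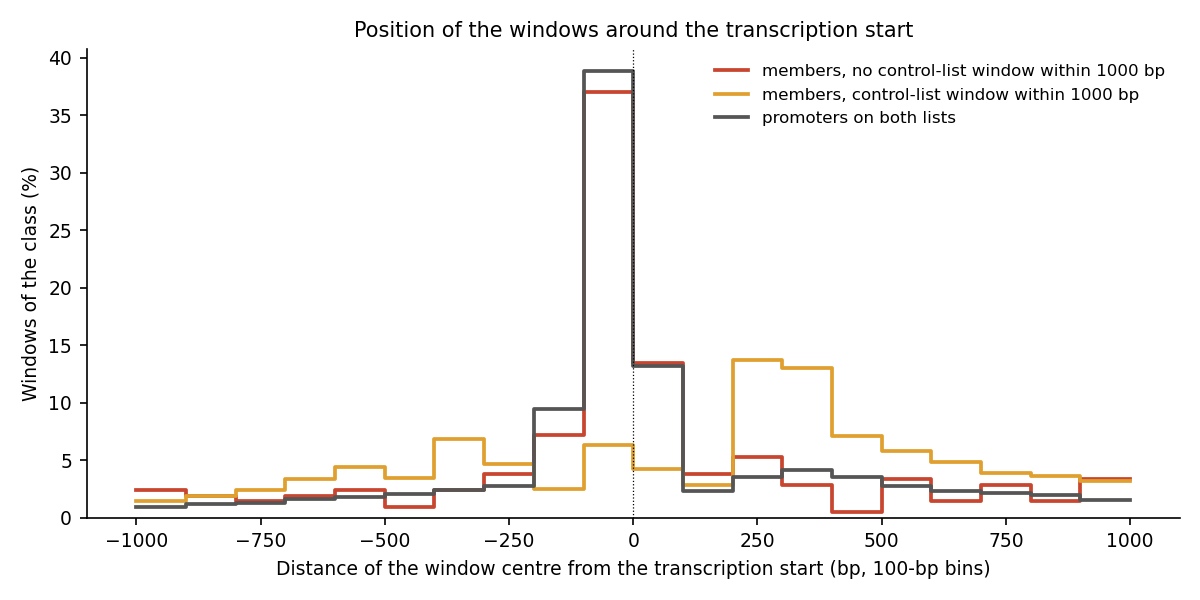
Distance of the window centre from the transcription start in bins of 100 bp (x axis, bp) against the share of each class of windows (y axis, %), for the 208 isolated members, the 943 flanking members and the 15013 promoters on both lists. Isolated members follow the promoters on both lists with a peak at the start, while flanking members have their highest bins at 200 to 400 bp downstream.

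The H3K27ac level of the set as a whole did not separate the diets. The mean per member was 26.6 and 24.9 normalised tags in the control libraries and 26.0 and 22.5 in the NASH libraries, so the diets overlapped. The members held 6.42% and 6.81% of all promoter tags in the control libraries (exact 95% intervals 6.35 to 6.49% and 6.76 to 6.87%) and 7.31% and 7.23% in the NASH libraries (7.25 to 7.37% and 7.17 to 7.29%). These intervals cover counting error only: those of the 2 control libraries do not overlap, and replicate tags varied more than counting gives (chi-square per degree of freedom 2.47 in control and 1.96 in NASH). Both NASH shares were above both control shares. With 2 libraries per diet an exact permutation test cannot reach 0.05, and none was made.

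The diets differed more when windows were taken one by one. Of the 1151 members, 251 (21.8%) had both NASH libraries above both control libraries, against 14.8% of all windows in the table, and 309 (26.8%) had both below, against 30.8%. With TMM scaling, an alternative that equalises the bulk of windows between libraries, these were 33.4% above (21.7% of all windows) and 14.9% below (22.2%). The isolated members leaned toward NASH. Among these 208, 95 (45.7%) were above and 17 (8.17%) below, and with TMM scaling 47.6% and 6.25%. Isolated members were low in both diets, with medians of 1.06 and 0.44 normalised tags in control and 1.60 and 1.56 in NASH. These NASH medians are at the floor of 3 tags, so for many isolated members the order of the diets rests on few tags. Among the 943 flanking members, 156 (16.5%) were above and 292 (31.0%) below, near the shares of all windows. With TMM scaling they had 30.3% above and 16.8% below, where all windows had 21.7% and 22.2%, so the nearness depends on the scaling. Promoters on both lists had 10.7% above and 34.3% below (20.7% and 21.3% with TMM scaling), and the 5685 windows of the 20-week list farther from a start had 35.6% and 10.6% (41.0% and 7.90%). The difference between isolated and flanking members was not tested, since windows of the same libraries are not replicates.

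**Figure D2:**
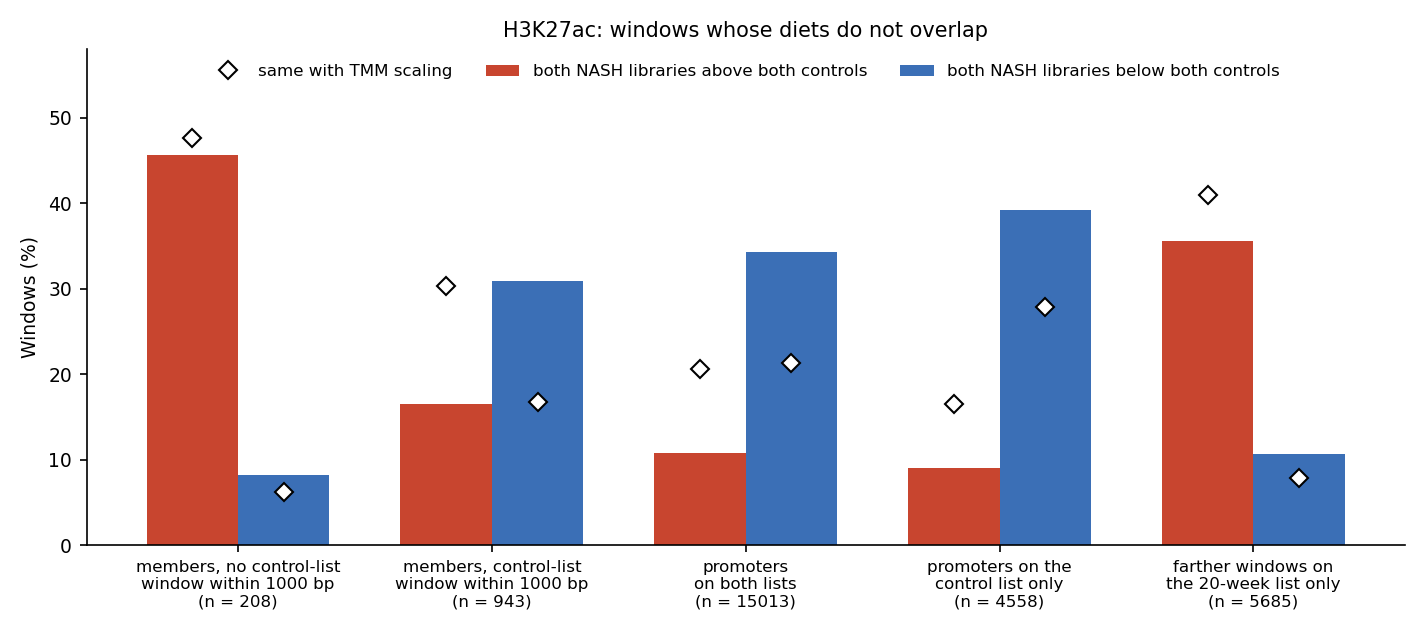
Share of windows (y axis, %) whose 2 NASH libraries are both above (red) or both below (blue) the 2 control libraries in H3K27ac, for 5 classes of windows (x axis). Bars use the authors' scaling and diamonds TMM scaling. Isolated members reach 45.7% above and 8.17% below, flanking members 16.5% and 31.0%.

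Single windows were tested with limma on log2(normalised tags + 1) over the 35947 windows that passed a filter on low counts, and a window was called at an adjusted p (Benjamini-Hochberg over all tested windows) under 0.05 with a log2 change, before any centring, of 1 or more in size. Of the 1151 members, 810 passed the filter. Of these, 39 windows at 33 genes rose (4.81%, where 2.00% of all tested windows rose) and 17 fell (2.10%, where 4.59% of all fell). With TMM scaling, 53 rose (3.32% of all) and 5 fell (2.51% of all). All 39 rose and 5 of the 17 fell under both scalings. Isolated members gave 21 of the 39 and none of the 17, from 36 tested. A window with hardly any tag in control cells passes the filter only if it is high in NASH cells, so this count is no independent support. Members without a control-list window at the gene's own promoter gave 18 that rose and none that fell, from 71 tested. Those beside one gave 21 and 17, from 739 tested. Without NASH replicate 1, 12 members were called higher, and without NASH replicate 2, 11. Of the 56 called windows, 8 kept their call whichever library was left out: Gpnmb at 93 and 597 bp, Lbp, Myo5a, Serpinb8, Ptafr at 480 bp, Stra6l at 731 bp and Synj2 at 289 bp. In such fits the lone library of a diet is assumed to vary like the others. Log2 changes below are relative to the median of all tested windows, which was -0.26.

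The called windows are ordered below by what the gene's product is known to do. That order was made after the calls and no enrichment was tested. Gpnmb, a glycoprotein of lipid-laden macrophages, changed most. Its 3 windows, at -598, 93 and 597 bp from the start, were all isolated. The window at 597 bp (chr6:49037015-49037215, intron) had 2.11 and 1.33 normalised tags in the control libraries and 41.1 and 39.0 in the NASH libraries. It rose by 4.19 on the log2 scale (SE 0.44, limma adjusted p = 9.7e-05). The window at 93 bp (chr6:49036511-49036711), which holds the AP-1 letters printed above, had 1.06 and 0 in control and 30.9 and 36.4 in NASH, a log2 change of 4.85 (SE 0.53, limma adjusted p = 0.000155). The window at -598 bp (chr6:49035820-49036020) had 0 and 0.44 in control and 25.1 and 16.6 in NASH, a log2 change of 4.42 (SE 0.58, limma adjusted p = 0.00049), and without NASH replicate 1 its adjusted p was 0.12. No Gpnmb window overlapped between the diets.

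Ptafr, the receptor of platelet-activating factor, had 2 flanking windows that rose. At 480 bp (chr4:132564447-132564647, intron) it had 5.28 and 6.19 normalised tags in control and 43.7 and 36.4 in NASH, a log2 change of 2.86 (SE 0.37, limma adjusted p = 0.00055). At -561 bp the values were 3.17 and 3.54 against 19.7 and 23.4, with an adjusted p of 0.089 without NASH replicate 2. Cd93, a C-type lectin-like glycoprotein of myeloid and endothelial cells, had an isolated window at 31 bp (chr2:148443404-148443604). It held no tag in either control library and 19.2 and 7.28 normalised tags in NASH, at least 5.89-fold higher than a floor of 3 tags per control library (limma adjusted p = 0.0028), and without NASH replicate 2 the adjusted p was 0.15. Without NASH replicate 1 it held too few tags to be tested. Both genes were low in both control libraries and higher in both NASH libraries.

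Other surface proteins had windows that rose. Gpr132, a receptor of lysophospholipids and oxidised fatty acids, had no tag in control cells and 7.47 and 10.4 normalised tags in NASH cells at 744 bp. Il21r, the receptor of interleukin 21, had 9.51 and 10.6 against 31.5 and 26.5 at 46 bp. The call was lost for Gpr132 without NASH replicate 1 (limma adjusted p = 0.32; not tested without replicate 2, for too few tags), and for Il21r without NASH replicate 1 or 2 (0.13 and 0.086). Cd63, a tetraspanin of late endosomes, had 2.11 and 0.44 against 15.5 and 13 at -100 bp, a log2 change of 3.10 (SE 0.57, limma adjusted p = 0.0062). Without NASH replicate 1 or 2, the adjusted p of Cd63 was 0.18 and 0.17.

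The next windows were at genes of vesicle traffic and transport. Myo5a, an actin motor that carries vesicles and pigment granules, had 1.06 and 0 normalised tags in control and 24.0 and 24.4 in NASH at -14 bp (chr9:75071092-75071292). It rose by 4.39 on the log2 scale (SE 0.56, limma adjusted p = 0.00038), while the next window of its promoter, on both lists, had no tag in control and 5.87 and 1.04 in NASH. Stra6l, a membrane receptor for retinol-binding protein, had 2 isolated windows that rose. At 731 bp (chr4:45849578-45849778) they held 3.17 and 0 against 28.8 and 20.3 (log2 change 3.88, SE 0.61, limma adjusted p = 0.0019), and at -562 bp no tag in control against 8.53 and 10.9. For the second, the adjusted p was 0.30 and 0.51 without NASH replicate 1 or 2. Each of the 3 windows was near the floor in control cells.

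Synj2, an inositol phosphatase of membrane traffic, had 3 windows that rose. The highest, at 289 bp (chr17:5975775-5975975, exon), held 7.39 and 2.65 normalised tags in control and 33.6 and 26.0 in NASH, a log2 change of 2.72 (SE 0.45, limma adjusted p = 0.0032). Plscr1, a phospholipid scramblase, had 2.11 and 2.65 against 20.3 and 19.2 at -32 bp (chr9:92250062-92250262), a log2 change of 2.88 (SE 0.48, limma adjusted p = 0.0032). Without NASH replicate 1 or 2 the adjusted p of Plscr1 was 0.05 and 0.061. Slc7a11, the cystine and glutamate exchanger, had 2 isolated windows: at -536 bp the values were 0 and 3.54 against 16.5 and 9.88 (limma adjusted p = 0.02), and at -10 bp, where the printed promoter lies, 0 and 0 against 5.33 and 8.32, too few tags to be tested. Clcn7, the chloride-proton exchanger of lysosomes, had 10.6 and 5.31 against 27.2 and 19.2 at -92 bp (log2 change 1.74, SE 0.42, limma adjusted p = 0.038). The diets did not overlap in any of these windows. Without NASH replicate 1, the adjusted p was 0.31 for the tested Slc7a11 window and 0.24 for Clcn7, and each also lost its call without NASH replicate 2 (0.13 and 0.079) and without 1 of the control libraries, replicate 1 for Slc7a11 (0.084) and replicate 2 for Clcn7 (0.11). The Synj2 windows at -270 and 606 bp lost their calls without either NASH library, with an adjusted p of 0.11 to 0.40.

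Windows at a protease inhibitor, at proteases and at a ubiquitin ligase adaptor follow. Serpinb8, an intracellular serine protease inhibitor, had the highest NASH values among the 10 named windows that rose, 71.5 and 56.2 normalised tags, against 12.7 and 2.21 in control, at 308 bp (chr1:107590214-107590414, intron). Its log2 change was 3.54 (SE 0.48, limma adjusted p = 0.00065). Mmp12, the macrophage elastase, had isolated windows at 2 starts. At the start whose sequence is printed (-17 bp, chr9:7347257-7347457), 1.06 and 1.33 faced 10.7 and 8.84 (log2 change 2.55, SE 0.57, limma adjusted p = 0.021), with an adjusted p of 0.38 and 0.37 without NASH replicate 1 or 2. At the other, 3.17 and 0 faced 6.93 and 10.4 (log2 change 2.48, limma adjusted p = 0.055), which did not pass. Astl, an astacin-like metalloprotease, had 2.11 and 0.88 against 23.5 and 16.6 at -796 bp (chr2:127337743-127337943, log2 change 3.36, SE 0.52, limma adjusted p = 0.002), and 0.083 without NASH replicate 1. Fbxo32, a substrate adaptor of a ubiquitin ligase, had 1.06 and 0.44 against 16 and 18.2 at 838 bp (chr15:58213954-58214154, log2 change 3.65, SE 0.55, limma adjusted p = 0.0016), with 0.069 and 0.16 without NASH replicate 1 or 2.

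Windows at transcription factor genes come next. Runx1, a regulator of blood cell fate, had 9.51 and 10.6 normalised tags in control and 35.7 and 21.3 in NASH at 494 bp (chr16:92696735-92696935, 5′ UTR), a log2 change of 1.63 (SE 0.37, limma adjusted p = 0.031), and 0.31 without NASH replicate 1. Its neighbour on both lists had 20.1 and 26.1 against 25.1 and 16.6, so the diets overlapped there. Mef2c had 1.06 and 0 against 5.87 and 12.0 at an isolated window, with an adjusted p of 0.23 without NASH replicate 1 and 0.065 without control replicate 2, and too few tags to be tested without NASH replicate 2. Atf3, whose protein was itself profiled, rose at -598 bp from 44.4 and 23.9 to 76.3 and 78.0 (log2 change 1.48, SE 0.28, limma adjusted p = 0.014), with 0.060 without control replicate 2 and 0.062 without NASH replicate 2. Its second member window, at 566 bp, had 72.9 and 72.1 against 110 and 80.1 (limma adjusted p = 0.35).

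The 17 windows that fell were all flanking, as were 774 of the 810 tested members. An isolated window near 0 in control cells could not fall. Lbp, the lipopolysaccharide binding protein, had 33.8 and 27.9 normalised tags in control and 6.40 and 6.76 in NASH at 155 bp (chr2:158306548-158306748, 5′ UTR), a log2 change of -1.80 (SE 0.37, limma adjusted p = 0.0032). Its neighbour on both lists also fell, from 13.7 and 19 to 2.13 and 3.12. Pxdc1 had 28.5 and 24.3 against 8.53 and 5.72, and Prr12 24.3 and 12.8 against 2.13 and 5.2. Hspa8, the constitutive heat shock cognate protein, had 23.2 and 17.7 against 4.27 and 6.76. Socs2, a suppressor of cytokine signalling, had 9.51 and 13.3 against 1.60 and 2.08. These 5 were called lower under both scalings.

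Ndst2, an enzyme that modifies heparan sulfate, was the highest of the named windows that fell, with 109 and 83.6 normalised tags in control and 46.9 and 42.1 in NASH. Abhd11 (37.0 and 39.4 against 16 and 14.6), the kinase gene Stk24 (48.6 and 20.3 against 13.9 and 6.76), Papd7 (25.4 and 12.8 against 4.27 and 5.2) and the co-chaperone gene Dnajb14 (34.9 and 21.2 against 10.7 and 9.36) completed the 10. With TMM scaling none of these 5 kept its call. Only Lbp among the 10 kept its call in every fit that left out 1 library. Leaving out a library raised the limma adjusted p of Pxdc1 to 0.063, of Ndst2 to 0.092, of Abhd11 to 0.11, of Prr12 to 0.18, of Hspa8 to 0.11, of Socs2 to 0.25, of Stk24 to 0.27, of Papd7 to 0.28 and of Dnajb14 to 0.24 at most.

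**Figure D3:**
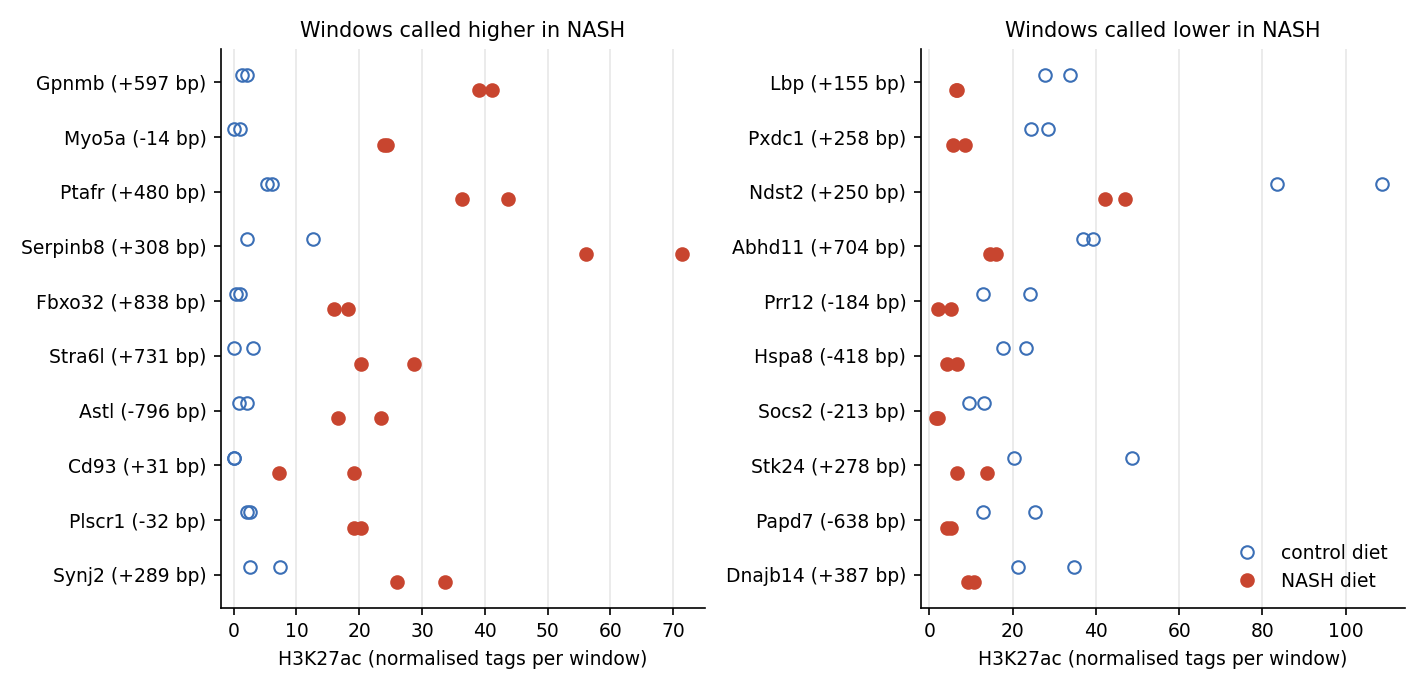
H3K27ac in normalised tags (x axis) in each of the 2 control (open blue) and 2 NASH (red) libraries for the 10 members with the smallest adjusted p that rose (left) and that fell (right), taking 1 window per gene and no predicted genes, with the distance of each window from the start. In every row the 2 diets do not overlap, and Gpnmb, Myo5a and Cd93 are near 0 in control.

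A member beside a control-list window did not always move with it. Of the 21 members that rose at such promoters, 18 had a tested neighbour, and for 8 of those the neighbour rose too and for none it fell. Members can share a neighbour: the 3 Synj2 windows share 1 that rose and so give 3 of the 8, and both Ptafr windows share 1. The neighbour need not be at the member's own start. It lay over 1000 bp away for 3 of the 18, which are Clcn7 (2951 bp) and 2 of the Synj2 windows (31778 and 32343 bp), so 6 of the 8 had a neighbour that rose within 1000 bp. Of the 17 that fell, 16 had a tested neighbour, of which 2 fell and none rose. Of all tested windows 2.00% rose and 4.59% fell, and of the tested promoters on both lists 0.59% and 2.16%. Cd63 and Chst11, a chondroitin sulfotransferase, were cases where the neighbour changed with the member: the neighbour of Cd63 had 2.11 and 0.88 normalised tags in control and 34.1 and 20.8 in NASH, and that of Chst11 had 1.06 and 0.88 against 29.3 and 18.2. The Chst11 member itself lost its call whichever library was left out, with a limma adjusted p of 0.094 to 0.54. Fbxo32 was a case of the other kind, since its neighbour at the same promoter had 48.6 and 60.1 against 78.9 and 61.4 (log2 change 0.62). The neighbour of Serpinb8 had 9.51 and 4.42 against 10.1 and 12.0 (log2 change 0.93). The members were picked by their call and the neighbours were not, so the sizes of their changes are not compared. Over all 915 pairs, the member had fewer tags than its neighbour in 376 (41.1%).

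**Figure D4:**
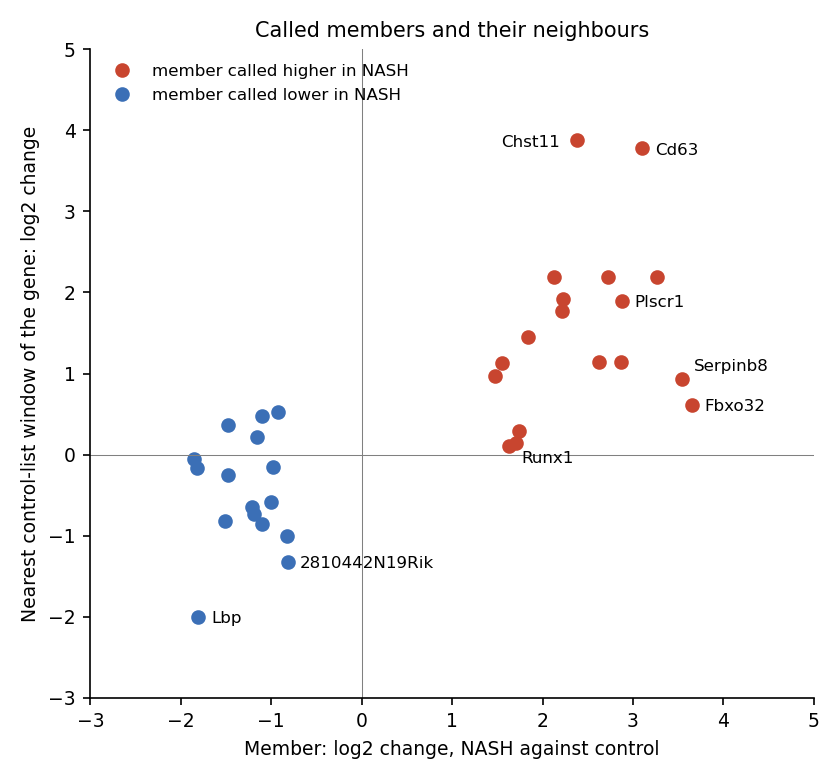
Log2 change in H3K27ac, NASH against control and relative to all tested windows, of each called member (x axis) and of the nearest control-list window of the same gene (y axis), for the 34 pairs with a tested neighbour, members that rose in red and those that fell in blue. The neighbours of all 18 members that rose lie above 0, highest for Chst11 and Cd63 and near 0 for Runx1, and those of members that fell lie on both sides of it. Members and neighbours share libraries and the members were picked by their call, so the plot shows values and not a comparison of sizes.

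At isolated members, more factor sites were on the NASH lists than on the control lists. An LXR site overlapped 8 of the 208 isolated members (3.85%) on the control list and 63 (30.3%) on the NASH list. For ATF3 these were 3 (1.44%) and 59 (28.4%), and for P300 5 (2.40%) and 64 (30.8%). At the 943 flanking members the shares moved from 18.5% to 21.8% for LXR, from 4.56% to 17.0% for ATF3 and from 14.1% to 23% for P300. Promoters on both lists went from 66.3% to 65.8%, from 20.6% to 36.2% and from 47.3% to 70.9%, so for LXR and P300 the isolated members stayed below them on the NASH lists as well. The pattern was not limited to promoters. At the 5685 farther windows of the 20-week list the shares went from 12.2% to 40.7% for LXR, from 3.87% to 50.4% for ATF3 and from 4.26% to 39.9% for P300. The lists themselves differ in length, with 44463 and 51709 LXR sites, 16109 and 38828 ATF3 sites and 25219 and 52628 P300 sites (control and NASH). With 1 list per factor and diet there is no replicate, and the headers of the NASH lists of LXR and P300 carry a different name, so their time on the diet may differ. Promoters on the control list only went from 21.6% to 19.6% for LXR, from 3.40% to 6.78% for ATF3 and from 12.0% to 22.5% for P300. No site of any factor in either diet overlapped 626 members (54.4%), against 15.2% of promoters on both lists. At promoters on the control list only this share was 62.7%, so the lack of sites was not particular to the set.

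**Figure D5:**
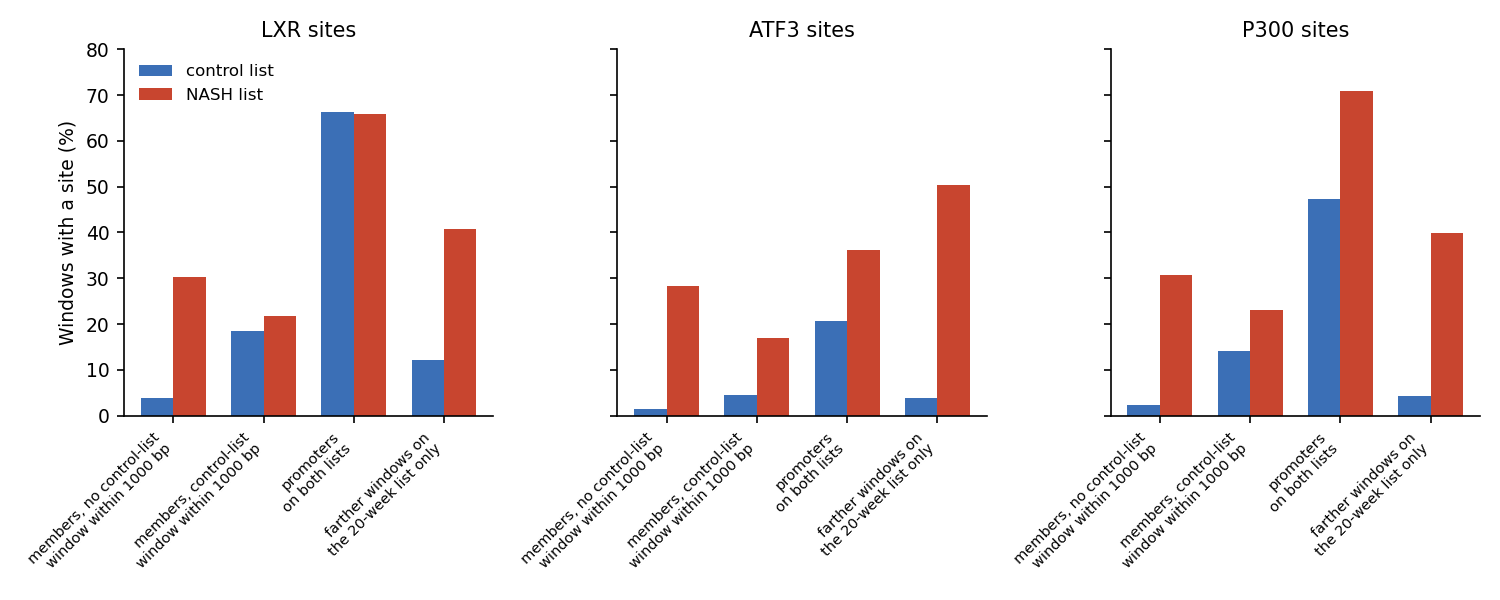
Share of windows (y axis, %) that overlap by at least 1 bp an LXR, ATF3 or P300 site on the control list (blue) or the NASH list (red), for isolated members, flanking members, promoters on both lists and farther windows of the 20-week list (x axis). At isolated members all 3 factors are below 4% on the control lists and between 28.4% and 30.8% on the NASH lists.

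H3K27ac was then set beside the sites. Over all windows in the table, 14.8% had both NASH libraries above both control libraries and 30.8% both below. With TMM scaling these were 21.7% and 22.2%, but the shares by site pattern below use the authors' scaling only. Of the 249 members with a site of any factor on the NASH lists and none on the control lists, 98 (39.4%) had both NASH libraries above both control libraries and 51 (20.5%) both below. Of the 161 tested, 25 were called higher, where 2.00% of all tested windows were. Of the 204 with sites in both diets, 27 (13.2%) were above and 75 (36.8%) below, and 2 of 181 tested were called higher. Of the 72 with sites on the control lists only, 11 (15.3%) were above and 30 (41.7%) below, and none of 69 tested was called higher. The 13.2% and 15.3% above were near the share of all windows. Of the 626 without a site, 115 (18.4%) were above and 153 (24.4%) below, and 12 of 399 tested were called higher. All 3 factors on the NASH lists and none on the control lists were found at 47 members (4.08%), 32 of them isolated (15.4% of isolated members). The share was 1.09% of promoters on both lists and 16.2% of the farther windows of the 20-week list, so this pattern was not particular to promoters. Of these 47 members, 30 (63.8%) had both NASH libraries above both controls and 4 (8.51%) both below. Of the 18 tested, 7 were called higher: Clcn7, Gpnmb (-598 bp), Mmp12, Runx1, Synj2 and both windows of Stra6l. A window low in control cells was tested only if it was high in NASH cells. The counts of calls by site pattern are therefore no independent support. The 3 highest of the 47 were not called: Cmpk1, a pyrimidine nucleotide kinase, had 73.9 and 65.4 normalised tags against 76.3 and 63.4, B930059L03Rik had 71.8 and 60.6 against 72.0 and 61.4, and Ube2d3, a ubiquitin-conjugating enzyme, had 28.5 and 20.3 against 25.6 and 31.7. Their diets overlapped.

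None of the 6 members with the strongest H3K27ac was called. The 6 members with the highest mean were at Mir5620, Napa, Ino80, Nr4a3, Morf4l1 and Hps4. Mir5620 had 198 and 253 normalised tags in control and 244 and 252 in NASH, 117 bp from a control-list window of another gene. Napa, a vesicle fusion adaptor, had 170 and 164 against 211 and 198 (limma adjusted p = 0.39). Nr4a3, an orphan nuclear receptor of early response, had 129 and 137 against 128 and 158 at -549 bp. Apart from Napa, where both NASH values were above both controls, and Morf4l1 (126 and 133 against 146 and 143), the diets overlapped.

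Of all 16039 genes with a window in the table, 1095 (6.83%) had one in the set. Of the 25 genes in the table known from macrophages of lipid-loaded or scarred tissue, 10 (40%) had 13 windows in the set. These shares are descriptions, since the lists were chosen with earlier results known and genes differ in their number of windows. Of these windows, 11 had both NASH libraries above both controls and 1 had both below, 10 were tested, 5 rose (Gpnmb 3 times, Cd63, Mmp12) and none fell. The median log2 change of the tested windows was 2.51, against 0.12 over the 810 tested members and 0 by construction over all tested windows, and Gpnmb and Mmp12 gave 5 of the 10. A window low in control cells was tested only if it was high in NASH cells, so this median is a description. Cx3cr1, the fractalkine receptor, had 3.17 and 1.33 normalised tags in control and 10.7 and 6.76 in NASH at -8 bp (limma adjusted p = 0.096). Vim had 27.5 and 29.2 against 39.5 and 39.5, and the cathepsin genes Ctsb and Ctsl had 53.9 and 58.4 against 81.6 and 67.1 and 72.9 and 80.5 against 74.7 and 49.4. Spp1, which encodes osteopontin, stayed near the floor in every library, with 1.33 normalised tags at most.

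Of 30 Kupffer cell identity genes, Csf1r and Hmox1 had a window (6.67%, near the 6.83% of all genes), with no call. Of 22 LXR target genes, 5 (22.7%) had 6 windows, of which Myo5a rose. The others did not pass, Cd38 with 54.9 and 84.0 normalised tags against 97.1 and 93.6 at 269 bp, Mylip with 47.5 and 53.5 against 67.7 and 65.5, and Abcg1, a cholesterol exporter, with 78.2 and 94.2 against 100 and 103. In these 3 windows both NASH values were above both controls. Of the 25 AP-1, ATF and related factors in the table, 7 (28%) had 8 windows, of which 1 rose, at Atf3. Junb had 99.3 and 63.2 against 78.4 and 91.0, and Jdp2 104 and 115 against 84.3 and 77.0.

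The other pathway lists had no call, but each list with a window had only 1 to 4 tested, where 4.81% of tested members rose and 2.10% fell. Clcn7 was not on the lysosome list, and Mmp12 was not on the list of growth factor and matrix genes. The absence of calls therefore says little about these pathways. NF-kB and inflammatory genes had 3 windows, among them Traf1, a signalling adaptor, with 5.28 and 0 normalised tags against 8 and 11.4 (limma adjusted p = 0.083). Interferon genes had 2, glycolysis genes 5, lysosome genes 4, and growth factor and matrix genes 6. TGF-beta, BMP and Notch genes had 4, of which Ski, an inhibitor of SMAD signalling, had 9.51 and 7.52 against 24.0 and 19.8 (limma adjusted p = 0.054) and was called higher with TMM scaling only. Antigen presentation and cell cycle genes had none, of 16 and 34 genes in the table, where 6.83% of all genes had one. Markers of other cell types were represented by Klrb1c, Cr2, Flt3 and Spp1, each at 2.60 normalised tags or less in every library.

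At the limit of 1000 bp, the members just inside were 9330136K24Rik at -999 bp (3.17 and 7.07 normalised tags in control, 3.20 and 1.56 in NASH) and Atpaf2 at 991 bp (3.17 and 0.44, 0 and 1.04). Just outside, both at 1005 bp, were Syne1 (1.06 and 2.65, 18.7 and 13) and Fbxo43 (1.06 and 0, 1.07 and 0.52).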

How the data were processed

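The authors deposited H3K27ac as a signal: HOMER tags per window on mm10, scaled to 10000000 tags per library, per the file headers. Bowtie2, HOMER and DESeq2 are named in the submitters' processing notes, with no version. The ATAC peak score and the scores of the factor lists, each joined from 2 libraries, are the authors' own, per the file headers, except that the ATF3 lists name no score column and their score was read from its place in the other lists. The LXR and P300 lists were limited to an IDR of 0.05, and the limit of the ATF3 lists is not stated in the sources used here. Multiplying by the library totals gave whole tags within 0.02 for 100% of values. Windows kept by filterByExpr (edgeR 4.0.16, minimum count 10) were fitted with limma 3.58.1 (trend) on log2(value + 1) over the 4 libraries, with no pairing. The test was run first on simulated data. Count tests on the recovered tags (edgeR quasi-likelihood, DESeq2 1.42.0), other scalings, pseudocounts and filters were alternatives. A site counted for a window when they shared at least 1 bp. The rule for naming took, in each direction, the 10 called members with the lowest adjusted p and no overlap between diets (1 per gene, no predicted genes), the 6 highest, the 6 highest with all 3 factors in NASH only, those of the gene lists and those nearest to the distance limit. The members, the 21 gene lists and the 14 motifs were chosen with earlier results of these data known. Input libraries and peritoneal macrophages were not analysed here.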

Additional observations from a re-analysis of the deposited data

How the results depend on the processing

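Depth limits the isolated members most, since many hold few tags. Relative to the median of all windows of the same fit, the median log2 change of the members kept its sign in every fit. It was 0.12 in the main fit, where the standard deviation of the members' median between replicates was 0.093. The sign before this centring was not compared. The 39 members called higher became 10 without a filter on low values, 23 and 14 with promoters cut at 500 and 200 bp, and 11 to 43 when 1 library was left out. The 17 called lower became 5 with TMM scaling, 9 with edgeR, 1 with DESeq2, 1 without a filter, 4 at 200 bp, and 5 to 53 when 1 library was left out (53 without control replicate 2). The 18 called higher without a control-list window at the gene became 11 with DESeq2, 4 without a filter, 8 with a minimum of 20 tags, 10 and 7 at 500 and 200 bp, and 4 to 21 when 1 library was left out. Members called higher numbered 55 with edgeR, 27 with DESeq2 and 26 with a minimum of 20 tags. The cause of these differences was not tested. The labels share replicate numbers between diets and do not say whether these pair libraries. Same-numbered libraries hardly deviated together (correlation 0.04), but 2 libraries per diet give a single contrast and cannot settle this. With the numbers as a replicate block, 53 members were called higher and 38 lower. Members with a factor site numbered, for LXR, ATF3 and P300, 118, 30 and 64 on the control lists and 200, 188 and 205 on the NASH lists when the middle of the site had to lie inside the window. Within 200 bp of the window they were 508, 167 and 401 on the control lists and 555, 378 and 636 on the NASH lists. With the upper part of each list by score they were 86, 21 and 78, and 108, 137 and 136. With this last setting the LXR and P300 lists were halved by rank, and ATF3 sites at the top of the column read as the score were kept.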

Other observations

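Of the 47 members with LXR, ATF3 and P300 sites on the NASH lists and none on the control lists, 5 more are named here after their values were seen. None of them was called. Slamf7, a surface receptor of immune cells, had 3.17 and 1.33 normalised tags in control and 10.7 and 9.36 in NASH at -20 bp (limma adjusted p = 0.054). Tnip3, an inhibitor of NF-kB signalling, had 2.11 and 0.88 against 11.7 and 5.72 at -73 bp (limma adjusted p = 0.059). Ccr1, a chemokine receptor, had 2.11 and 0.88 against 5.33 and 4.68, too few tags to be tested. Il1r1, the interleukin 1 receptor, went the other way, with 2.11 and 1.77 against 0.53 and 0.52, all within the floor of their libraries apart from the value of 1.77. Slc7a2, an importer of arginine, had 4.22 and 5.31 against 10.7 and 12.0 at a flanking window (limma adjusted p = 0.17). In all of them but Il1r1 both NASH libraries were above both control libraries.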
